A study of Mus musculus with 2 samples.

Results

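Contractile genes of smooth and striated muscle were examined in lung tissue of Bclaf1 knockout mice, set against lung tissue of wild-type mice. The genes were Myh11, Myocd, Cald1, Tpm2, Tpm1, Tnnt2, Mb, Pln and Myh6. They were taken as every clone that carries 1 of these symbols in either gene table of the authors, the up-regulated or the down-regulated one. This gave 9 clones, 1 per gene, of 3509 listed clones and of 22656 clones in the value table. All 9 clones had a value on both arrays, and for all 9 the symbol and the gene ID in the tables named the same gene.

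Each of 2 spotted cDNA arrays held RNA of 1 Bclaf1 knockout lung sample labelled with Cy3 and of 1 wild-type lung sample labelled with Cy5, so the study has 2 samples of each genotype and no further agent or treatment. The series text places the mice at postnatal day 1. The sample titles read NB_E19, taken here as embryonic day 19, and the NB is not explained in the labels used here. The sources used here do not settle which stage holds. The labels do not give the strain, the sex, the deleted part of Bclaf1 or whether animals were pooled. They also do not say that the samples are separate animals, and a p-value then covers only the spread of these arrays, possibly a technical one.

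Values are log2 ratios of the channels as deposited, and an SD is over the 2 arrays. The numerator of the ratio is not stated. With Cy5 over Cy3, a positive ratio is a lower level in knockout lung; by the names of the authors' lists, it is a higher level in knockout lung. Ratios are therefore given by side, where the positive side is that of the up-regulated list, and the other reading would turn every sign below together. Dye and genotype cannot be told apart. The Bclaf1 clone itself lay at 0.40 and 0.41, and its position relative to the deletion is unknown here.

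Smooth muscle cells of the airways and vessels contract when calcium and calmodulin switch on the kinase that phosphorylates myosin. Their myosin heavy chain is Myh11, and caldesmon and tropomyosin on the actin filament restrain the motor. Myocardin (Myocd) is the coactivator that, with serum response factor at CArG boxes, turns on smooth muscle genes; it also acts in heart muscle. Striated muscle is regulated instead through troponin on tropomyosin, and phospholamban (Pln) holds back the calcium pump that relaxes the heart cell. Mouse lungs hold striated muscle of the cardiac kind as well, since a sleeve of heart muscle runs along the pulmonary veins. In whole tissue, a different number of muscle cells and a different amount of RNA per muscle cell cannot be told apart.

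The 9 genes did not lie on 1 side. Of the smooth muscle genes, 2 were positive (Myh11 and Cald1) and 2 negative (Myocd and Tpm2). Of the heart genes, 2 were positive (Tnnt2 and Mb) and 2 negative (Pln and Myh6), and Tpm1, which both kinds of muscle make, was negative. The channels differed 1.19-fold (Tpm1) to 1.82-fold (Tnnt2). All 9 clones had the same sign on both arrays, as did 69.6% of all clones and 2260 of 2315 listed genes. Positive on both arrays were 4 of the 9 and 35.7% of all clones, and negative on both arrays 5 of the 9 and 33.9%. However, a clone had to be in the authors' tables to be named, so nothing is read from these counts.

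Because symbols are known for listed clones only, every one of the 9 had been selected by the authors on these same arrays. The ratios below are a description for that reason, and their SDs may be too small. In limma's fit over 22532 clones, 0 clones (0%) passed the threshold of 0.05 on the Benjamini-Hochberg adjusted p. The adjusted p of the 9 clones was 0.349 for 8 of them and 0.356 for Mb. At an unadjusted limma p under 0.05 there were 5 of the 9, beside 3138 clones (13.9%) of all and 60.5% of the listed clones.

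**Figure D1:**
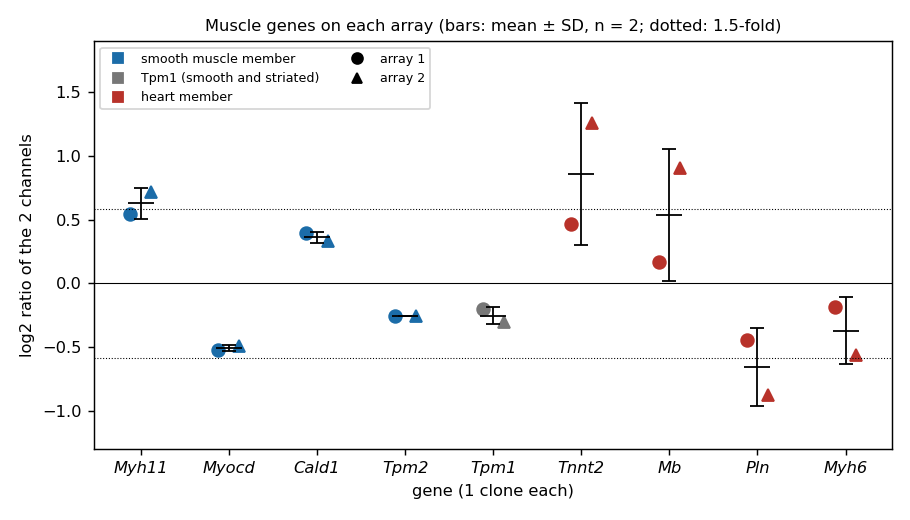
Log2 ratio of the channels for the 9 muscle genes, 1 clone each, with circles for array 1, triangles for array 2, and bars for the mean ± SD (n = 2 arrays). Smooth muscle genes are blue, Tpm1 grey and heart genes red; the arrays lie close together for the blue genes and apart for the red ones.

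Start sites of 7 of the 9 genes were in RefSeq's promoter table (build GRCm38.p6), with 11 windows in all; Myh11 and Myocd had no entry. The 250 bases before each start were searched on both strands for the CArG box, the E-box CANNTG, the MCAT motif CATTCC, the GATA motifs AGATAA and TGATAA, and the TATA motif TATAAA. The MCAT motif, which TEAD factors bind, was in 4 of the 11 windows and in 12.6% of all 32851 windows of the table. All 4 windows with this motif are shown. The motif was picked for display because its genes pair a positive and a negative one. These pairs are Cald1 and Tpm1 of the actin filament, of which both kinds of muscle make Tpm1, and Tnnt2 and Myh6 of the heart sarcomere. Each is read 5′ to 3′ towards the start, and the capitals mark the motif, written CATTCC where it lies on the gene's strand and GGAATG where it lies on the other strand.
Cald1, chr6:34598254-34598503, plus strand: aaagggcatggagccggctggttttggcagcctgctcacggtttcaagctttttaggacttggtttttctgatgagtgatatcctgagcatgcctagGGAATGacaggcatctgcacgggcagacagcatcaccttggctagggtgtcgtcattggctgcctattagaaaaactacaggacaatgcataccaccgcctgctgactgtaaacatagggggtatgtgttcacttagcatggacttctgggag
Tpm1, chr9:67049214-67049463, minus strand: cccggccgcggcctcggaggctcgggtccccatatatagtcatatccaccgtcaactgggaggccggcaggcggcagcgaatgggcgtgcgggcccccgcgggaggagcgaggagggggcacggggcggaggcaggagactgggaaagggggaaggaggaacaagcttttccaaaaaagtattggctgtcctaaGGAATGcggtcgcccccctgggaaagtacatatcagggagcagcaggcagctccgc
Tnnt2, chr1:135836084-135836333, plus strand: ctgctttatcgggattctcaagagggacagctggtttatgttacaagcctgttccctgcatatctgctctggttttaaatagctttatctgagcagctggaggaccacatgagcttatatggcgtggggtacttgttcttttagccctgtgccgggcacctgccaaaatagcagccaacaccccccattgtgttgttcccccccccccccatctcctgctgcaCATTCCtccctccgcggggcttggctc
Myh6, chr14:54966608-54966857, minus strand: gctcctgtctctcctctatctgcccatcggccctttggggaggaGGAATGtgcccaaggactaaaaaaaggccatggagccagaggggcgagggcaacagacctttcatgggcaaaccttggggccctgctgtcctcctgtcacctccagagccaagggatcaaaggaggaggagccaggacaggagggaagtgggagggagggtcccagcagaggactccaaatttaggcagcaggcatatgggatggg

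The motif began 153 bases before the first start of Cald1, 56 before the start of Tpm1, 27 before the first start of Tnnt2 and 206 before the start of Myh6. Cald1 and Tnnt2 each have a second start in the table, and its window did not hold the motif. Cald1 and Tnnt2 lay on the positive side of the ratios, and Tpm1 and Myh6 on the negative side. Genes with the motif in this window were on both sides, but the motif had been picked for display for that reason. The E-box was in all 11 windows, which belong to 7 genes, and in 66.2% of the table. The windows are not independent, since Mb has 3 of them and 2 of these overlap. GATA motifs were in 2 windows, those of Pln and of the first start of Tnnt2, and in 16.6% of the table. The TATA motif was in 2 windows, of Pln and of the second start of Cald1, and in 12.4% of the table. The CArG box, whose middle can spell the TATA motif, was in 0 of the 11 windows and in 1.47% of the table, which says only that its letters are not in these windows. Matches of different motifs overlapped 0 times in the 11 windows. None of the motifs was tested against the ratios.

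Of the smooth muscle genes, Myh11, the motor of smooth muscle on chromosome 16, had log2 ratios of 0.54 (array 1) and 0.71 (array 2). The mean was 0.63 ± 0.12 (SD, n = 2), a 1.55-fold difference between the channels, and both arrays lay close together. On array 1, 3.83% of all clones lay at or above it, and on array 2, 3.71%, so its place among the clones was nearly the same on both. Myocd, on chromosome 11, lay on the opposite side at -0.53 and -0.49, a mean of -0.51 ± 0.022 and a 1.42-fold difference. The coactivator and the myosin whose gene it is known to turn on thus had opposite signs on each array. The Myocd clone was farther out on array 1, where 1.07% of clones lay at or below it, than on array 2, where 6.75% did.

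Cald1, which encodes caldesmon and lies on chromosome 6, had 0.39 and 0.33, a mean of 0.36 ± 0.045 (SD, n = 2). Its values were on the positive side with Myh11 and smaller on both arrays. Tpm2, beta-tropomyosin of smooth and skeletal muscle on chromosome 4, had -0.26 on both arrays, a mean of -0.26 ± 0.00012. An agreement this close is that of 1 clone among many on 2 arrays and gives no measure of its error. Tpm1, alpha-tropomyosin on chromosome 9, had -0.20 and -0.30, a mean of -0.25 ± 0.069. As deposited, the means of Tpm1 and Tpm2 differed by less than the SD of Tpm1. They lay farther apart, at -0.20 for Tpm1 and -0.39 for Tpm2, once the median of neighbouring clone numbers was subtracted (the blocks described below).

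The order of the 4 smooth muscle genes was Myh11, Cald1, Tpm2 and Myocd on both arrays. Their spread from lowest to highest was 1.07 on array 1 and 1.21 on array 2 (log2). Between neighbours in that order, the values of the 2 arrays did not overlap. Each gene is represented by 1 clone, so clone and gene cannot be told apart.

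Of the heart genes, Tnnt2, cardiac troponin T on chromosome 1, which ties the troponin complex to tropomyosin, had 0.47 on array 1 and 1.26 on array 2. The mean was 0.86 ± 0.56 (SD, n = 2), the largest of the 9 genes in size, and it ranked 399 of 22532 clones by absolute mean. Most of that came from array 2, where 1.44% of clones lay at or above it, against 5.63% on array 1. Mb, myoglobin of heart and oxidative skeletal muscle on chromosome 15, had 0.17 and 0.90, a mean of 0.54 ± 0.52. On array 1 alone Mb was among the ordinary clones, with 25.1% of all clones at or above it, while on array 2 this share was 2.43%.

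Pln, on chromosome 10, had -0.44 (array 1) and -0.88 (array 2). Its mean was -0.66 ± 0.31, with a 1.58-fold difference. It was far out on both arrays, with 2.06% and 1.61% of clones at or below it. Myh6, the alpha heavy chain of cardiac myosin on chromosome 14, had -0.19 and -0.56, a mean of -0.37 ± 0.26 (SD, n = 2). The thick-filament gene Myh6 and the thin-filament gene Tnnt2 of the same sarcomere thus lay on opposite sides on each array. A spotted cDNA can bind the messages of close relatives, such as other myosin heavy chains or other tropomyosins, and its part in these values was not tested.

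The order of the 4 heart genes was Tnnt2, Mb, Myh6 and Pln on both arrays, with a spread of 0.91 on array 1 and 2.13 on array 2 (log2). The positive and the negative pair did not overlap on the arrays, whereas within each pair the arrays' values overlapped: those of Mb spanned most of the range of Tnnt2, and those of Pln overlapped those of Myh6.

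Set against the heart genes, the smooth muscle genes had no shift in common. The mean over the 4 smooth muscle genes was 0.038 on array 1 and 0.073 on array 2, and over the 4 heart genes it was 0.0019 and 0.18. Smooth muscle minus heart was 0.036 (array 1) and -0.11 (array 2), which averages to -0.036 ± 0.10 (SD, n = 2), which is smaller than the spread between the arrays. With 2 arrays an exact two-sided sign test cannot go below a p of 0.5, and none was made.

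The groups were also compared by how far the arrays lay apart. The SD over the arrays was 0.00012 to 0.12 for the smooth muscle genes and 0.26 to 0.56 for the heart genes. The ratio of array 2 to array 1 in absolute log2 value ran from 0.84 (Cald1) to 1.32 (Myh11) in smooth muscle genes and from 1.98 (Pln) to 5.31 (Mb) in heart genes. The larger absolute ratio was on array 2 for 1 of the 4 smooth muscle genes and for 4 of the 4 heart genes, beside 59.6% of all clones. The heart clones came from a stretch of the clone set where 85.6% of the 118 listed clones were larger on array 2, so their count was near that of any listed clone there. The median absolute log2 ratio of the 4 heart genes was 0.31 on array 1 and 0.89 on array 2, against 0.15 and 0.20 over all clones. Over all 2315 listed genes, selected by the authors as the heart genes were, it was 0.30 and 0.35. On array 1 the heart genes were thus near any listed gene. This pattern was noticed after the values were seen and was not tested.

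**Figure D2:**
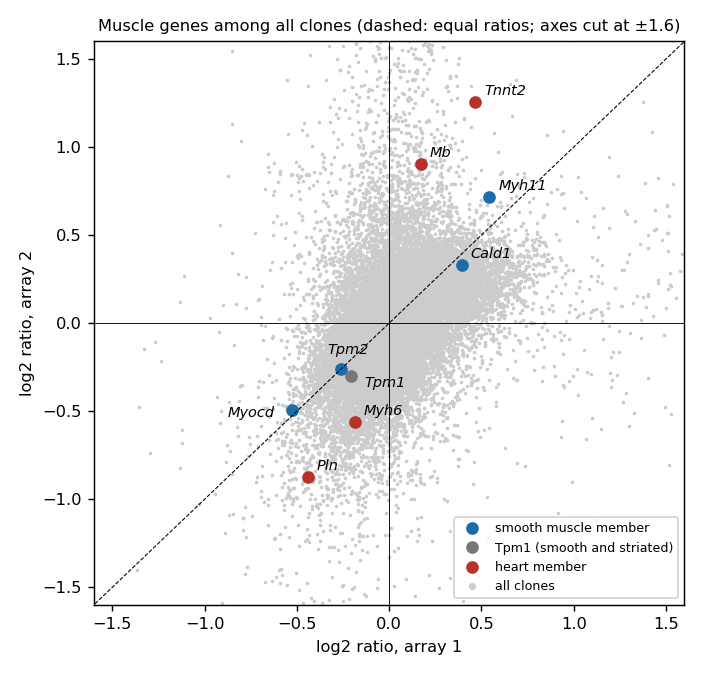
Log2 ratio on array 1 (x axis) and on array 2 (y axis) for all clones in grey and the 9 muscle genes in colour, with both axes limited to 1.6 in either direction. Heart genes in red lie farther from 0 on array 2 than on array 1, while smooth muscle genes in blue and Tpm1 in grey lie near the dashed line of equal ratios.

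Where the clones stood in the set moved with this pattern. The 4 heart clones had clone numbers from 17642 to 17945, a run of 304 numbers, and the tables place them at plate positions 7A02 (Mb), 7G20 (Pln), 7J14 (Myh6) and 8G23 (Tnnt2). The smooth muscle clones ranged from number 127 (Tpm2) to 18980 (Myh11). When the clone numbers were split in order into 59 blocks of equal length, the heart clones fell in blocks 46 and 47. The blocks do not follow the plate positions: Mb stands on the same plate as Pln and Myh6 but in another block, while Myocd at 10L14 and Myh11 at 11G19 share a block. Of all 768 clones in these blocks 71.0% had the larger absolute ratio on array 2, and this share ran from 26.9% to 79.4% over the 59 blocks. Block 46, which holds Mb, ranked 3 of the 59 by this share, and block 47, which holds Tnnt2, Pln and Myh6, ranked 18. The SD across the 768 clones was 0.24 on array 1 and 0.45 on array 2, against 0.29 and 0.43 over all clones.

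Myh11 and Myocd were both in block 50, where 66.1% of clones were larger on array 2. The spread of the blocks was unlike: the SD across clones was 0.41 (array 1) and 0.54 (array 2) in block 50, 0.24 and 0.47 in block 47, and 0.24 and 0.42 in block 46. With the median of the block subtracted on each array, Tnnt2 had 0.46 and 1.30, Mb 0.18 and 1.17, Pln -0.45 and -0.83, and Myh6 -0.20 and -0.52. Myh11 then had 0.59 and 0.74, Myocd -0.48 and -0.47, Cald1 0.28 and 0.18, and Tpm2 -0.35 and -0.42. The larger absolute value was now on array 2 for 4 of the 4 heart genes and for 2 of the 4 smooth muscle genes, Myh11 and Tpm2. A median takes off no difference in spread. Divided by the block's SD as well, Tnnt2 stood at 1.89 and 2.76 SDs of its block, Mb at 0.753 and 2.83, Pln at -1.87 and -1.76, and Myh6 at -0.815 and -1.09. On that scale 3 of the 4 heart genes were larger on array 2, and Pln was about as far out on both; of the 4 smooth muscle genes 1 was, Tpm2 in place of Myh11. This scale was chosen after the values were seen. The part of clone position in the difference was not tested.

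**Figure D3:**
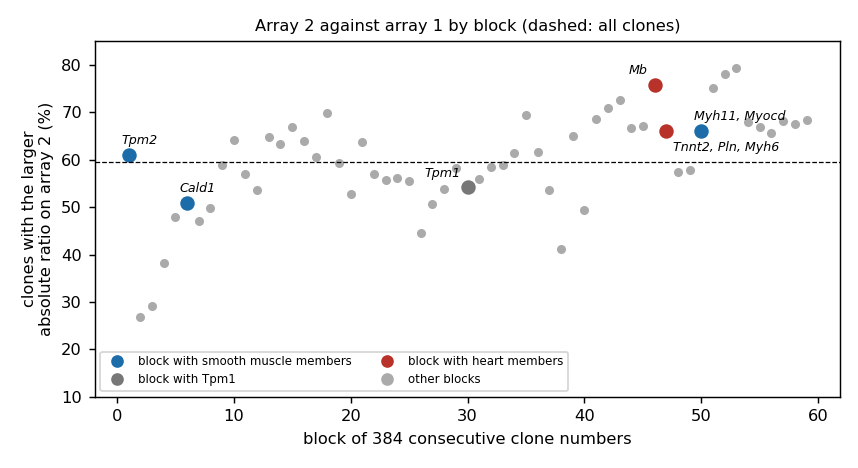
Share of clones with the larger absolute log2 ratio on array 2, in percent, for each of 59 blocks of consecutive clone numbers; the dashed line is the share over all clones, 59.6%. Red marks the blocks of the heart genes, blue those of smooth muscle genes and grey that of Tpm1. Both red blocks, the block of Myh11 and Myocd and that of Tpm2 lie above the line, and those of Cald1 and Tpm1 below it.

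Past 1.5-fold on both arrays with the same sign were 0 of the 9 muscle clones and 0.817% of all clones. On array 1 alone 0 of the 9 passed 1.5-fold, beside 3.81% of all clones. On array 2 alone 4 did, Myh11, Tnnt2, Mb and Pln, beside 9.85% of all clones. The count was thus higher on array 2 for all clones as well. Of all clones, 12.7% passed 1.5-fold on at least 1 array. Because the 9 clones had been listed by the authors on these arrays, nothing is read from their counts beside these shares.

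The authors' deposited table gives a fold change of 1.56 for Myh11, 1.29 for Cald1, 0.63 for Myocd and 0.81 for Tpm2. For Tpm1 the authors' deposited table gives 0.84. For the heart genes, the authors' deposited table gives 1.72 for Tnnt2, 1.52 for Mb, 0.59 for Pln and 0.79 for Myh6. The p-values beside them in the authors' deposited table ran from 0.02 to 0.05. On the log2 scale these fold changes lay within 0.16 of the mean of the arrays, the widest gap being that of Myocd, whose arrays give a fold of 0.70. By the authors' deposited table Tnnt2 was the largest of the positive genes and Pln of the negative ones, as in the mean of the arrays.

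Other genes of muscle contraction were taken from lists of smooth muscle contractile, heart and striated muscle, and muscle transcription genes. The tables name 7 of 33 genes of the smooth muscle list, Tpm1 and 3 of the smooth muscle genes above included. Of these 4 were positive and 3 negative, with a median log2 ratio of 0.36. That median was 0.054 without Ppp1r12b, whose gene ID is not in the gene table used here, and 0.23 with block medians subtracted. Over all 2315 listed genes 1119 were positive, 48.3%, and the median was -0.10. A listed gene is on a side by selection, so a median follows the side with more genes. None of these list genes had a limma adjusted p under 0.05.

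The 3 smooth muscle list genes beyond the 9 all regulate the contraction rather than carry it. Ppp1r12b, a targeting subunit of the phosphatase that removes phosphate from myosin light chain, named by its symbol alone, had 1.505 (array 1) and 0.66 (array 2), with a mean of 1.08 ± 0.59 (SD, n = 2). Rhoa, the small GTPase that, through its kinase, inhibits that phosphatase, had 0.76 and 0.20, a mean of 0.48 ± 0.39. Kcnmb1, the subunit that makes the calcium-activated potassium channel of smooth muscle more sensitive to calcium, had -0.25 and -0.53, a mean of -0.39 ± 0.20. Unlike the heart genes, Ppp1r12b and Rhoa had the larger ratio on array 1.

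Of the 69 genes of the heart and striated muscle list, 11 were named, 7 positive and 4 negative, with a median of 0.31. The larger absolute ratio was on array 2 for 10 of the 11, against 1418 of all 2315 listed genes. In calcium handling, the pump gene Atp2a2, whose product Pln inhibits, had 0.26 and 0.37, a mean of 0.31 ± 0.078 (SD, n = 2), and lay opposite to Pln. The calcium stores of the sarcoplasmic reticulum, cardiac calsequestrin Casq2 and skeletal calsequestrin Casq1, had 0.29 ± 0.046 and 0.44 ± 0.068, on the side of the pump.

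In the sarcomere itself both sides were seen. Myoz2, a calcineurin-binding protein of the Z disc, had 0.52 (array 1) and 0.36 (array 2), the only heart list gene whose mean over its clones was larger on array 1. Its clone stands at plate position 8G21, beside that of Tnnt2 at 8G23, which had the larger value on array 2. Nebl, nebulette of the cardiac Z disc, had -0.43 and -1.08, and Ldb3, a Z-disc adaptor, had -0.32 and -1.27 in its first clone and -0.21 and -0.54 in its second. Tpm3, a tropomyosin of slow muscle and of many other cells, had 0.25 and 0.55 in its first clone and 0.27 and 0.26 in its second, on the side opposite to Tpm1 and Tpm2; the gene ID given for it was not in the gene table used here.

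The heart list genes shared the place of the heart members in the clone set. Of the 13 clones of the 11 genes, 9 lay between clone numbers 17459 and 17945, 4 positive and 5 negative, and 8 of these 9 had the larger absolute ratio on array 2. Of all 80 listed clones between these numbers 85% did, so the share among the heart list clones was close to that of their surroundings. Of the 4 clones elsewhere, 3 did. The range of numbers was chosen after the values were seen.

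**Figure D4:**
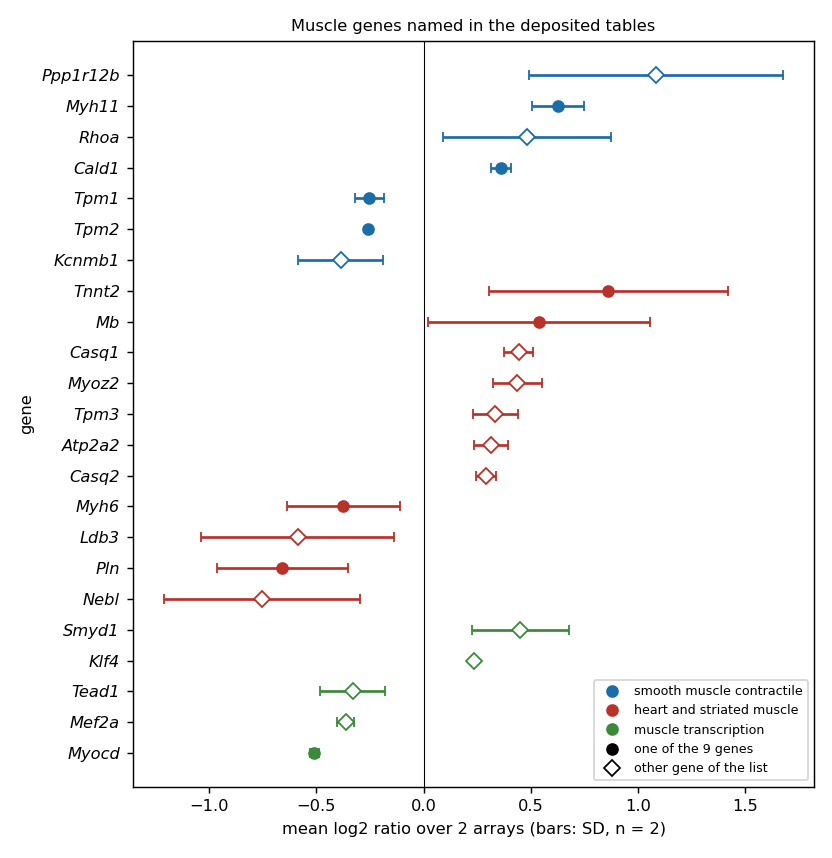
Mean log2 ratio over 2 arrays with its SD for the muscle genes that the deposited tables name, by list: smooth muscle contractile (blue), heart and striated muscle (red) and muscle transcription (green). Filled circles are the 9 genes and open diamonds other genes of the lists; each list has genes on both sides of 0.

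Of 26 muscle transcription genes 5 were named, 2 positive and 3 negative, with a median of -0.33. Smyd1, a methyltransferase of heart and skeletal muscle, had 0.29 and 0.61, a mean of 0.45 ± 0.23 (SD, n = 2), and Klf4, which represses smooth muscle genes, had 0.24 and 0.23. Negative beside Myocd were Tead1, a factor that binds the MCAT motif shown above, with -0.22 and -0.44, and Mef2a, a MADS-box factor, with -0.39 and -0.34. The Mef2a clone carries the gene ID of Lysmd4, so its name is in doubt; without it, 2 genes were positive and 2 negative, with a median of -0.049. Myocd thus had the largest negative mean of the 5, at -0.51.

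Markers of other cells of the lung and of neighbouring organs were sought to set beside the muscle genes. Of 41 markers in 9 lists (alveolar type II and type I, airway, endothelial, fibroblast, red cell, leukocyte, thymus and liver) the tables name 1, the collagen gene Col1a2, at -0.21 and -0.17. Of the 5 cardiac muscle markers 3 were named (Tnnt2, Pln and Myh6), of the 4 smooth muscle markers 1 (Myh11), and of the 4 skeletal muscle markers 0. All of these named muscle markers are among the 9 genes, which were chosen because the authors had listed them. Among all 22656 clones, 3509 were listed. Nothing is therefore read from the muscle counts beside those of the other markers. Clones of the remaining markers carry no name in the tables, so the labelled tissue was not checked against its markers.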

How the data were processed

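RNA of Bclaf1 knockout lung (Cy3) and wild-type lung (Cy5) was hybridised together on each of 2 arrays in the same dye orientation and, per the labels' protocols, scanned on an Agilent scanner. The deposited value table holds 1 log2 ratio per clone and array. How the signals were corrected and normalized, and with which software, is not stated. The medians of 0.0068 and 0.0041 show the arrays as centred over all clones only. Medians of the blocks of clone numbers ran from -0.20 to 0.34 on array 1 and from -0.33 to 0.26 on array 2. The direction of the ratio is unknown. The authors' tables add, per the file headers, a fold change on the linear scale and a p-value for each listed clone, made by a test and a selection that they do not describe. Only 2 arrays limit the precision of each value.

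Clones without a value on an array (9 on array 1, 115 on array 2) and control features were left out. The other 22532 clones were fitted with limma 3.58.1 in R 4.3.3 (intercept, eBayes, two-sided, Benjamini-Hochberg over all clones, threshold 0.05), and the script was tested on simulated data. Symbols were updated through a RefSeq gene table (GRCm38.p6, names only), and clones of a gene were averaged in the lists. The text names all 9 genes, Bclaf1 and each muscle list or marker gene found in the tables, except 1 list gene that is not reported here. The members and lists were chosen with earlier results of these data known. Alternatives were centring, scaling, quantile normalization, block medians, robust eBayes, an ordinary one-sample test, other thresholds, stricter naming, clones averaged by gene, clones measured once, and each array alone; the placing of Tpm1 and division by block SDs were added after seeing the data.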

Additional observations from a re-analysis of the deposited data

How the results depend on the processing

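The 9 muscle genes kept the sign of their mean log2 ratio in 54 of 54 values over the 6 alternatives that move it (centring, scaling, quantile normalization, block medians and each array alone), while another 5 leave it as it was, and their adjusted p under the limma fits and the ordinary one-sample test stayed between 0.319 and 0.675. The single arrays among these only repeat the same sign on both arrays, which 2260 of 2315 listed genes also had. Because the 9 were listed on these same arrays, nothing is read from the kept signs. Over all clones, 0 passed an adjusted p of 0.05 under each alternative fit, and 3138 passed at an unadjusted p under 0.05. Clones past 1.5-fold on both arrays numbered 184, with 1481 past 0.32 on the log2 scale, 38 past 2-fold, and 859 to 2219 on a single array. For the muscle genes the count of 0 became 1 (Myh11) with arrays at equal median absolute deviation, 2 (Myh11 and Pln) after quantile normalization, 1 (Myh11) with block medians subtracted, where 212, 253 and 209 of all clones passed, and 5 past 0.32 on the log2 scale (Myh11, Myocd, Cald1, Tnnt2 and Pln); on single arrays it was 0 to 4. Smooth muscle minus heart ran from -0.13 to 0.036 over 10 alternatives, 7 of which move it, so its sign is not settled; it was -0.098 with Tpm1 counted as smooth muscle and 0.033 with Tpm1 counted as heart. Keeping only clones whose symbol and gene ID name the same gene removed Ppp1r12b, Tpm3 and Mef2a, and the list medians were then 0.054 for smooth muscle and -0.049 for muscle transcription. On single arrays these medians ran from 0.20 to 0.39 and from -0.34 to -0.22, and block medians subtracted gave -0.22 for muscle transcription. The heart and striated muscle median ran from 0.26 to 0.36 on single arrays and was 0.20 with block medians subtracted, against 0.31 as deposited; the smooth muscle median was then 0.23. Each ratio already pairs a knockout with a wild-type sample on 1 array, and the limma fit on these ratios is that paired analysis. Spot intensities were not used here, so which clones were dim is unknown.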

Other observations

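Genes related to the 9 by function, picked after their values were seen, also lay on both sides. The nonmuscle myosin heavy chains Myh9 and Myh10, which drive contraction of the cell cortex, had mean log2 ratios of 0.48 ± 0.34 and 0.35 ± 0.27 (SD, n = 2 arrays), on the side of Myh11. Both were larger on array 1, with 0.72 and 0.54, than on array 2, with 0.24 and 0.16. Tmod3, which caps actin filaments, had 0.34 ± 0.15. Utrn, utrophin, which ties actin to the membrane in many tissues, had -0.31 and -0.94. Abcc9, the sulfonylurea receptor of potassium channels in heart and vascular smooth muscle, had -0.44 ± 0.054, on the side of Kcnmb1. Ctnna3, an alpha-catenin of heart cell junctions, had -0.33 ± 0.039. Myo9b, an unconventional myosin, averaged -0.11 ± 0.10 over its 2 clones.

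The gene ontology terms in the authors' tables, examined after the results were seen, gave no common side either. Of 46 named genes annotated to actin binding, 5 of them among the 9, 20 were positive and 26 negative. Of 17 genes of motor activity 7 were positive, of 12 of calmodulin binding 6, and of 25 of heart development 10, beside 48.3% of all listed genes. Of 4 genes of muscle contraction, 3 of them among the 9, 2 were positive and 2 negative. In the blocks of the heart genes 38 of 118 listed clones were positive (32.2%), and 85.6% had the larger absolute ratio on array 2, against 42.9% and 62.5% of all listed clones.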
